A study of Homo sapiens with 8 samples.

Results

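The pore-forming subunits of the voltage-gated potassium, sodium and calcium channels were examined in a neuroblastoma line treated with interferon-γ (IFN-γ). Members were taken by gene symbol (KCNA, KCNB, KCNC, KCND, KCNF, KCNG, KCNH, KCNQ, KCNS and KCNV numbers, the SCN genes ending in A, and the CACNA1 genes), which gave 60 of the 26372 genes of the expression table, 40 for potassium, 10 for sodium and 10 for calcium channels. The cells were BE(2)-M17, a human neuroblastoma line in long use, with 4 libraries from cells given IFN-γ at 10 ng/ml for 24 h and 4 libraries from untreated cells. The series addresses the long noncoding RNA GOMAFU and the interferon response of neurons. The labels name no genetic change in the cells, put all 8 libraries under M17 although the growth notes also mention SH-SY5Y, and leave out whether each library had a culture of its own, so the p-values measure the spread between libraries, which may be technical. Values are FPKM, fragments per kilobase of transcript scaled to the mapped fragments of the library, as the authors deposited them.

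Voltage-gated channels open when the membrane potential changes. Sodium channels carry the upstroke of the action potential, potassium channels return the membrane to rest and set how readily it fires again, and calcium channels couple depolarization to transmitter release, gene expression and rhythmic firing. Each sodium or calcium channel is built on 1 large pore subunit, whereas potassium channel pores assemble from several smaller subunits, and auxiliary subunits adjust the trafficking and gating of all of them. Neuroblastoma arises from the sympathetic lineage of the neural crest, whose neurons use members of all of these families. In bulk RNA, a smaller share of cells carrying an RNA and less of that RNA per cell cannot be told apart.

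The libraries held about 13.8 to 20.1 M fragments (M is mega), as estimated from the steps between low FPKM values, and 1 fragment per kilobase was worth 0.0497 to 0.0724 FPKM. IFN-γ replicate 4 stood apart. In the 3 pairs of IFN-γ libraries that include it the variance between libraries was 4.60 to 6.32 times the counting variance, against 1.25 to 2.17 times in the 9 pairs of either group without it, so results that rest on this library are given with and without it. The interferon response was present in the libraries labelled IFN-γ, where IRF1, a transcription factor that IFN-γ induces, averaged 125 FPKM, against 0.584 FPKM in untreated cells. Of the neuroblastoma markers, MYCN averaged 1817 FPKM with IFN-γ and 2003 FPKM in untreated cells, and HAND2 averaged 297 FPKM with IFN-γ and 307 FPKM in untreated cells. Of the 10 markers of that list 9 were tested, 2 called higher and none lower. Markers of endothelial cells summed to at most 0.134 FPKM in any library, and those of leukocytes to at most 1.49 FPKM, with CD3E listed at 0. Glial markers summed to 2.25 to 3.04 FPKM with IFN-γ and to 2.10 to 2.22 FPKM in untreated cells. Of the 6 fibroblast markers, 4 were tested, with 2 called higher and 1 lower, and the summed level of the list ran from 184 to 239 FPKM with IFN-γ and from 166 to 176 FPKM in untreated cells. DCN, most of that sum, had 131, 132, 134 and 177 FPKM with IFN-γ, against 137, 138, 138 and 146 FPKM in untreated cells. Its means were 143 FPKM with IFN-γ and 140 FPKM in untreated cells. IFN-γ replicate 4 alone set that direction, as the other IFN-γ libraries lay below all untreated ones. LUM had 29.9, 29.3, 28.9 and 41.9 FPKM with IFN-γ, a mean of 32.5 FPKM, and averaged 20.3 FPKM in untreated cells. PDGFRB averaged 21.0 FPKM with IFN-γ and 8.20 FPKM in untreated cells (2.54-fold on the scale of FPKM + 0.1), and COL1A2 was close to 0. The 6 muscle markers summed to 4.04 to 5.44 FPKM with IFN-γ and to 0.193 to 0.432 FPKM in untreated cells, of which DES averaged 4.53 FPKM with IFN-γ and 0.0917 FPKM in untreated cells, with MYH1 and MYH2 listed at 0 in every library. SNORD3A, a small nucleolar RNA, was listed at 0 with IFN-γ and made up 5.97% to 57.9% of the summed FPKM of the untreated libraries, while the median FPKM of tested genes was 9.14 to 9.28 with IFN-γ and 8.93 to 8.98 in untreated cells. What part these marker and SNORD3A differences have in the channel results was not tested.

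Sodium channel RNA rose with IFN-γ through SCN2A and SCN9A, and 5 potassium channel genes fell. A mean of at least 0.5 FPKM over the 8 libraries was required for testing, which 13598 genes and 23 of the 60 channel genes reached, and a gene was called at an adjusted p under 0.05 in limma over those genes. Of the 23, SCN2A and SCN9A were higher with IFN-γ, KCNH4, KCNC4, KCNG1, KCNH8 and KCNQ5 were lower, and 16 did not pass. Over all tested genes 13.3% were called higher and 9.05% lower. Calls were thus made for 7 of the 23 channel genes, at a background of 22.3% of all tested genes in either direction. The higher share of all calls, 59.5%, depended on scaling and was 36.4% after quantile normalization and 39.0% after rescaling to TPM without short RNA genes. The log2 change, here always of FPKM + 0.1 and IFN-γ minus untreated, was below 0 for 16 of the 23 channel genes and for 51.0% of all tested genes, and its median was −0.23 over the channel genes and −0.0047 over all tested genes. By class, 2 of 5 tested sodium channel genes were called higher and none lower, 5 of 16 potassium channel genes lower and none higher, and neither of the 2 calcium channel genes was called.

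**Figure D1:**
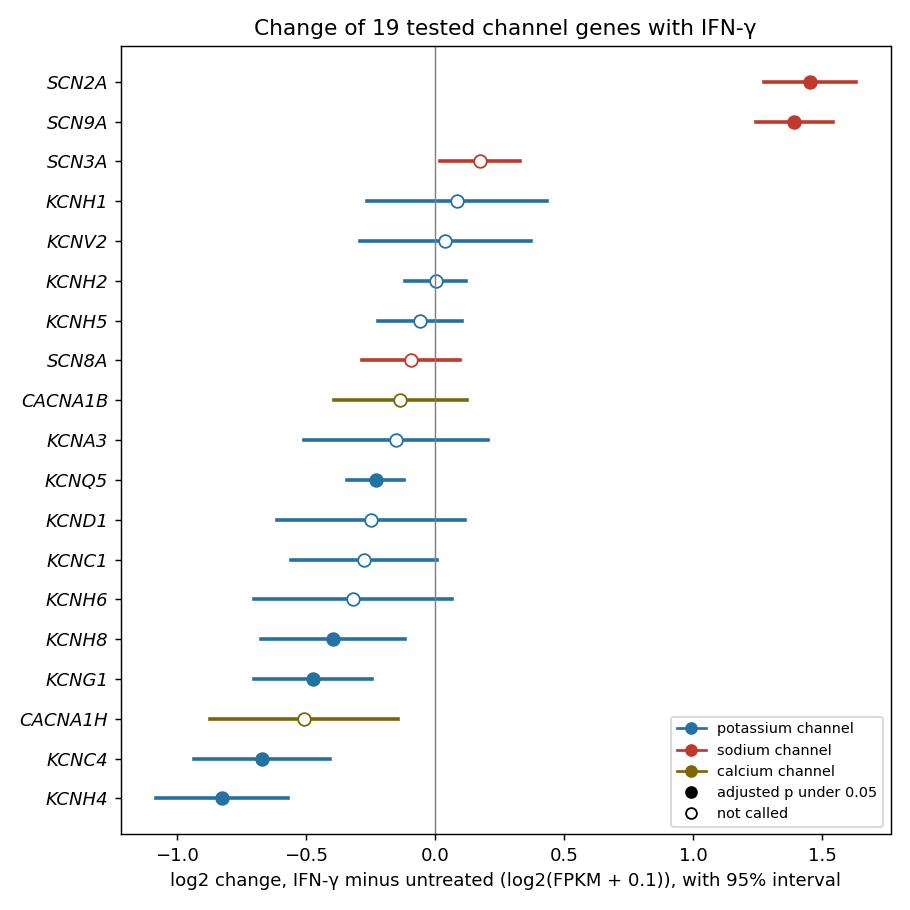
Log2 change (IFN-γ minus untreated, of FPKM + 0.1) of 19 of the 23 tested channel genes with its 95% confidence interval, by class. SCN2A and SCN9A lie at 1.45 and 1.39, far above the other channel genes, and the 5 genes called lower run from −0.23 to −0.82.

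The 37 channel genes under 0.5 FPKM were 24 for potassium, 5 for sodium and 8 for calcium channels. KCNA1, KCNA5, KCNA10, KCND2, KCNV1 and SCN10A were listed at 0 in all 8 libraries, and the other 31 reached at most 0.506 FPKM in any library, which was KCNS2. All 4 Cav1 genes, which encode L-type calcium channels, and 7 of the 8 Kv1 genes were among those under 0.5 FPKM. Just under the threshold were KCNG3, at a mean of 0.339 FPKM over the 8 libraries, and KCNH3 at 0.318 FPKM, and just above it was KCND1 at 0.812 FPKM. Among the tested genes the RNA per length was led by KCNH2 for potassium, SCN9A and SCN8A for sodium and CACNA1B for calcium channels.

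**Figure D2:**
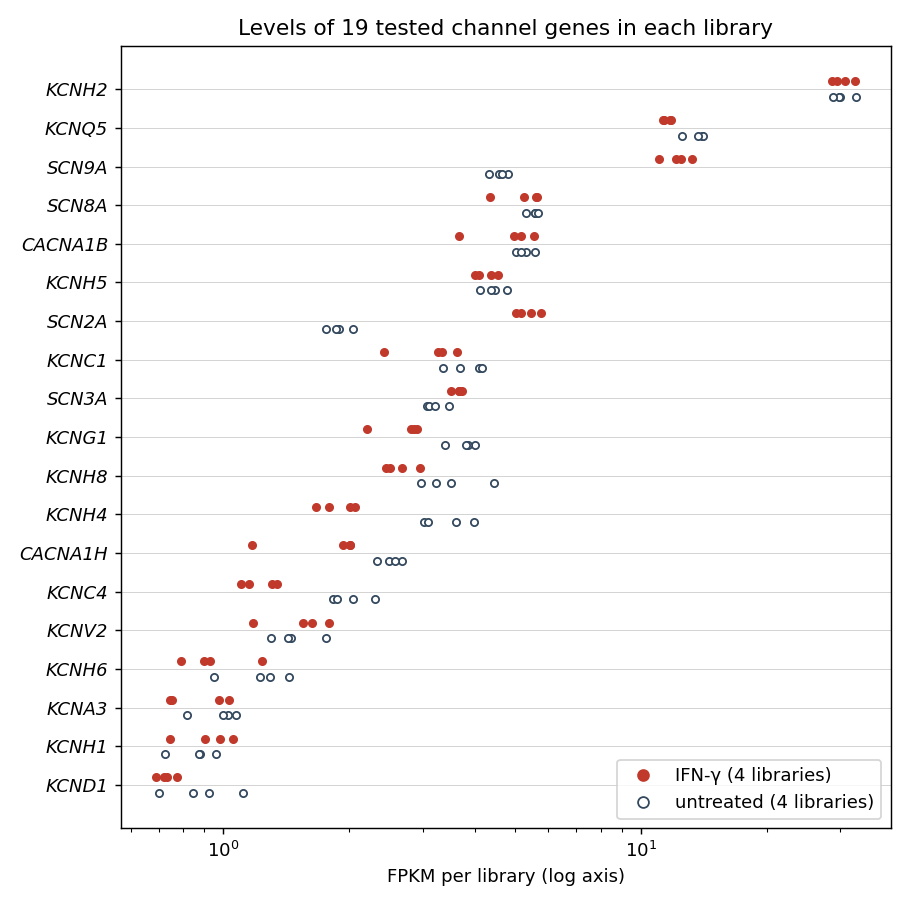
Level of 19 tested channel genes in FPKM (log axis) in each of the 4 IFN-γ and 4 untreated libraries. KCNH2, near 30 FPKM in both groups, is the highest, and SCN2A and SCN9A show IFN-γ points well above the untreated points.

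SCN2A encodes Nav1.2, a sodium channel of axons and unmyelinated fibres in the brain, where it is prominent early in development. SCN2A had 5.46, 5.17, 5.76 and 5.02 FPKM with IFN-γ, against 1.76, 1.89, 2.05 and 1.86 FPKM in untreated cells. The lowest IFN-γ library lay above the highest untreated library by a wide margin. The group means were 5.35 ± 0.327 FPKM with IFN-γ and 1.89 ± 0.118 FPKM in untreated cells (SD, n = 4 each), a log2 change of 1.45 (95% interval 1.27 to 1.63), or 2.74-fold on the scale of FPKM + 0.1, with limma adjusted p = 3.9e-07. The values stand for about 833 to 1178 fragments per library with IFN-γ and 330 to 419 in untreated cells.

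SCN9A encodes Nav1.7, the sodium channel of sympathetic and pain-sensing neurons whose loss abolishes pain. SCN9A had 13.3, 12.5, 12.1 and 11.0 FPKM with IFN-γ, against 4.79, 4.31, 4.56 and 4.64 FPKM in untreated cells. Again the groups were far apart, with little spread among the untreated libraries. The means were 12.2 ± 0.928 FPKM with IFN-γ and 4.58 ± 0.200 FPKM in untreated cells (SD, n = 4 each), a log2 change of 1.39 (95% interval 1.25 to 1.54), or 2.63-fold, with limma adjusted p = 1.2e-07. Both genes were called under each of the 18 alternative settings, and their log2 changes ran from 1.13 to 1.50 for SCN2A and from 1.24 to 1.44 for SCN9A. A log2 change at least as high as that of SCN9A was seen for 297 genes, 2.18% of those tested.

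The other tested sodium channel genes did not pass. SCN8A, which encodes Nav1.6, the main channel of mature axon initial segments and nodes, had 5.63, 5.25, 5.61 and 4.34 FPKM with IFN-γ, against 5.57, 5.59, 5.31 and 5.66 FPKM in untreated cells. The groups overlapped and IFN-γ replicate 4 was the lowest, and the log2 change was −0.09 with a 95% interval of −0.28 to 0.10 (limma adjusted p = 0.491), or −0.0091 without that library. SCN3A, which encodes Nav1.3, the embryonic brain channel, averaged 3.64 ± 0.0935 FPKM with IFN-γ and 3.22 ± 0.173 FPKM in untreated cells (SD, n = 4 each). Its groups did not overlap, but its log2 change of 0.17 had a limma adjusted p of 0.106, and it was called under 1 of the 18 alternatives, limma without the variance trend (adjusted p = 0.0401).

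Of the sodium channel genes under 0.5 FPKM, SCN1A showed the widest gap in the other direction. SCN1A encodes Nav1.1, the channel of inhibitory neurons whose loss causes Dravet syndrome. SCN1A had 0.132, 0.144, 0.194 and 0.147 FPKM with IFN-γ, against 0.335, 0.385, 0.383 and 0.398 FPKM in untreated cells. All 4 IFN-γ libraries were lower than all untreated libraries, at about 25.7 to 40.7 fragments per library with IFN-γ and 69.3 to 94.3 in untreated cells. With no filter on low values, which tested 20025 genes and called 9.29% higher and 5.73% lower, its log2 change was −0.91 (SE 0.15, limma adjusted p = 0.00303). In that fit SCN11A, which encodes Nav1.9 of pain-sensing neurons, was called higher, at means of 0.110 FPKM with IFN-γ and 0.0388 FPKM in untreated cells (limma adjusted p = 0.0451). KCNG3, which encodes a silent subunit that alters Kv2 channels, was called lower, at 0.246 ± 0.0407 FPKM with IFN-γ and 0.433 ± 0.0332 FPKM in untreated cells (SD, n = 4 each; limma adjusted p = 0.0246). These 3 were the channel genes under 0.5 FPKM called without the filter. SCN7A, whose product senses sodium rather than voltage, averaged 0.0823 FPKM with IFN-γ and 0.0886 FPKM in untreated cells.

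Summed over the 10 genes, sodium channel RNA was 27.6 ± 1.91 FPKM with IFN-γ and 16.5 ± 0.340 FPKM in untreated cells (SD, n = 4 each). SCN9A made up 44.2% of that sum with IFN-γ and 27.7% in untreated cells, and SCN2A made up 19.4% with IFN-γ and 11.4% in untreated cells. SCN8A, the largest share of the untreated sum at 33.5%, made up 18.8% with IFN-γ. The order of levels per length therefore differed between the groups, with SCN9A first, and SCN2A and SCN8A next and alike within their spread, with IFN-γ, and with SCN8A ahead of SCN9A, SCN3A and SCN2A in untreated cells. SCN1A made up 0.561% with IFN-γ and 2.27% in untreated cells.

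**Figure D3:**
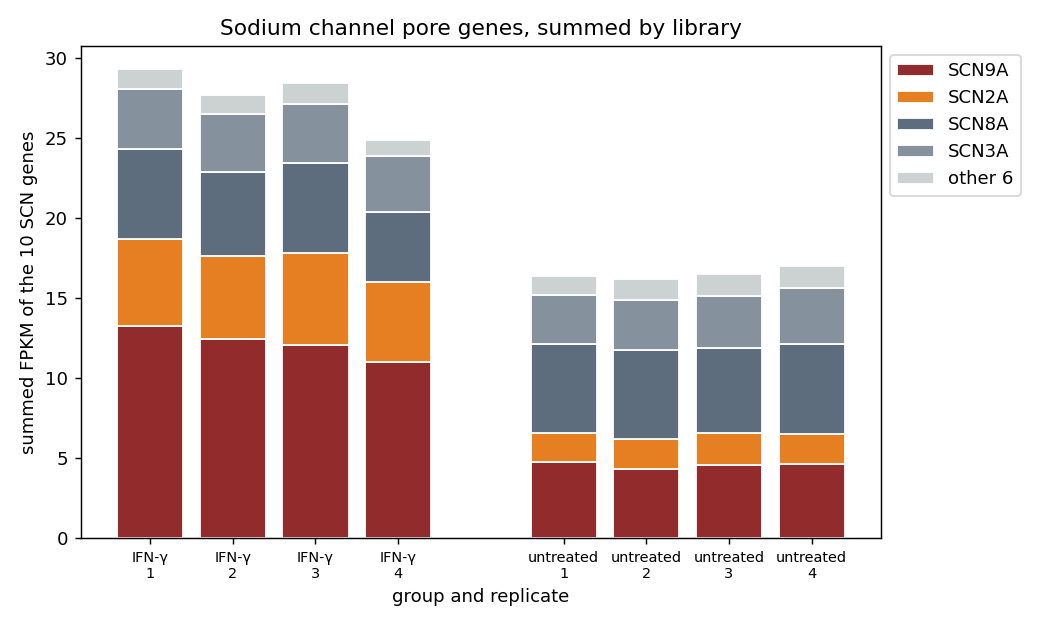
Summed FPKM of the sodium channel genes in each library, stacked by gene with 6 genes pooled as other, with IFN-γ libraries left of untreated ones. The sum lies between 24.9 and 29.3 FPKM in the IFN-γ libraries and between 16.2 and 17.0 FPKM in the untreated libraries, and the difference lies in the SCN9A and SCN2A layers.

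The 2 sodium channel genes called higher belong to the cluster on the long arm of chromosome 2 that holds 5 of the 10 sodium channel genes, in the order SCN3A, SCN2A, SCN1A, SCN9A and SCN7A. RefSeq places it at chr2:165087526-166494249 of GRCh38.p14, 1.41 Mb with 12 genes of the expression table. The genes within it did not move as 1 block. CSRNP3, a neighbour of SCN2A and a nuclear protein gene, averaged 27.9 ± 1.56 FPKM with IFN-γ and 22.5 ± 0.407 FPKM in untreated cells (SD, n = 4 each), a log2 change of 0.31 (limma adjusted p = 8.6e-04) that was not called after rescaling to TPM (adjusted p = 0.0764), while TTC21B, a gene of cilia between SCN2A and SCN1A, averaged 11.4 FPKM with IFN-γ and 11.8 FPKM in untreated cells (limma adjusted p = 0.496). SCN1A lies between TTC21B and SCN9A and was the lower one described above. SCN1A-AS1, an antisense RNA gene that spans parts of SCN1A and SCN9A in RefSeq, averaged 0.485 ± 0.183 FPKM with IFN-γ and 0.233 ± 0.123 FPKM in untreated cells (SD, n = 4 each), with groups that overlapped. The library kit is not stated to keep strand, so reads of this RNA and of SCN1A or SCN9A exons it overlaps cannot be told apart.

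**Figure D4:**
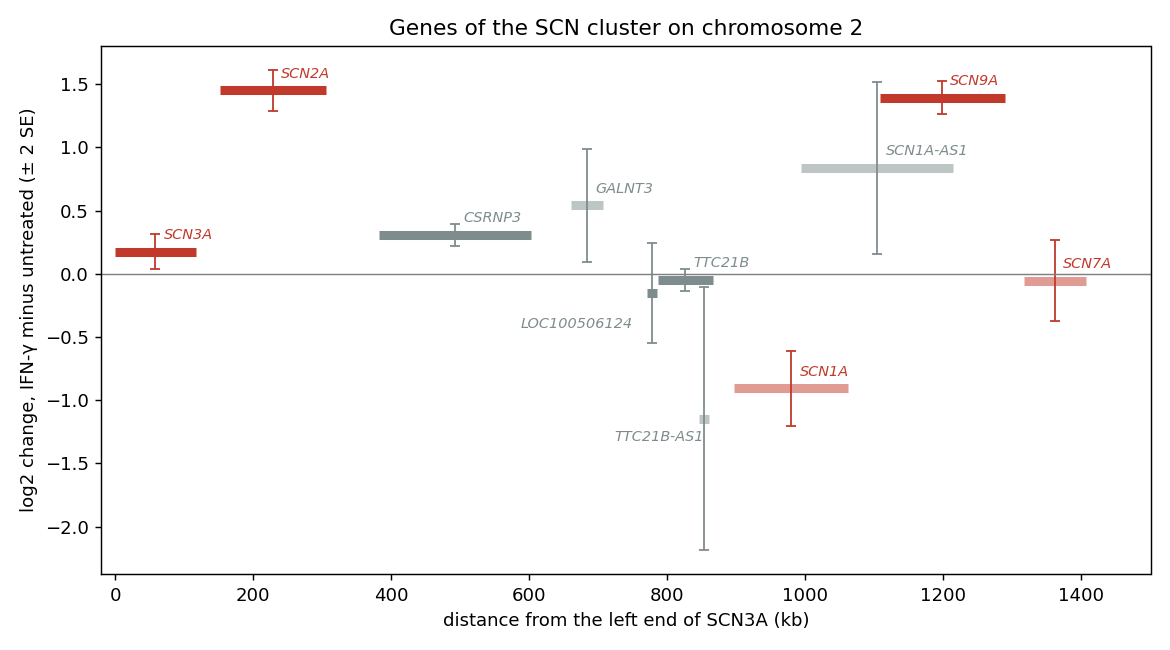
Log2 change (IFN-γ minus untreated) of the genes of the chromosome 2 sodium channel cluster, drawn as bars along the distance from the left end of SCN3A in kb, with error bars of 2 standard errors either way. Solid bars are tested genes, and pale bars are genes under 0.5 FPKM. All values and error bars are from the fit without a filter. SCN2A and SCN9A stand at 1.45 and 1.39, with SCN1A between them at −0.91 and TTC21B at −0.05.

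The start regions of SCN2A and SCN9A, which rose by a like amount, and of KCNH4 and KCNC4, the potassium channel genes with the largest falls, are shown as RefSeq gives them on GRCh38.p14, 250 bases before to 50 bases after the start, on the gene's own strand, with CG in capitals because CG-rich and CG-poor promoters work differently. The upstream one of the 2 listed SCN2A starts is at chr2:165239164-165239463 on the plus strand, SCN9A is at chr2:166375895-166376194 on the minus strand, KCNH4 is at chr17:42181093-42181392 on the minus strand and KCNC4 is at chr1:110210064-110210363 on the plus strand.
SCN2A: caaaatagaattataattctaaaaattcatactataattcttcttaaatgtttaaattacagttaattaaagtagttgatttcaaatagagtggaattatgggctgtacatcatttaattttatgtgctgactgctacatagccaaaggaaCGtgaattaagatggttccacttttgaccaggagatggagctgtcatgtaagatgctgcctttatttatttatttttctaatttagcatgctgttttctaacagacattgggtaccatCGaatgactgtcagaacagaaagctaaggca
SCN9A: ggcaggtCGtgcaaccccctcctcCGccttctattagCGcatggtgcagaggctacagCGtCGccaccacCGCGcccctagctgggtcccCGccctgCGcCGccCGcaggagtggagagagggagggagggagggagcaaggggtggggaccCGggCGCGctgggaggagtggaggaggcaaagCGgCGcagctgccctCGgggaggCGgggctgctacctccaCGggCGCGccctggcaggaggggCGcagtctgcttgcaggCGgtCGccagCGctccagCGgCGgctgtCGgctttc
KCNH4: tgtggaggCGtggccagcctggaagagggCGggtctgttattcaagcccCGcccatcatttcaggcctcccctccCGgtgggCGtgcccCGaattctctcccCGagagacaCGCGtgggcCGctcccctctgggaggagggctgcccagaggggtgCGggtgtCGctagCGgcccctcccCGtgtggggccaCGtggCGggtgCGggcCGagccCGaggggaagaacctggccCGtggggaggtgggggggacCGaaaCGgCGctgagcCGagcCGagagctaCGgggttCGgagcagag
KCNC4: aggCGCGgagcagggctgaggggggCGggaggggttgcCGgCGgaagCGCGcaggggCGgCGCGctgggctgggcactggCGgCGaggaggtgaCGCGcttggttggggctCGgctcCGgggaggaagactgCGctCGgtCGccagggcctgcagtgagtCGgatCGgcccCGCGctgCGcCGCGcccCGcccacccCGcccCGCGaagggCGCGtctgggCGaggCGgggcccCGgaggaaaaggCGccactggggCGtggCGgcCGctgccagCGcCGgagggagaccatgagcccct
SCN2A held 2 CG in this window, at a GC content of 31.7%, whereas SCN9A held 28 CG at a GC content of 73.3%, KCNH4 held 27 CG and KCNC4 held 41 CG. Over all 35116 such windows the median was 14 CG, and 18.2% of them held no more CG than SCN2A. The further SCN2A start that RefSeq lists held 1 CG. Of the pair that rose, SCN2A thus had CG-poor windows and SCN9A a CG-rich window at the starts that RefSeq lists. The GENCODE model of SCN2A begins further upstream, at chr2:165194993, and that start was not examined. Which start these cells use was not tested. Windows were listed for 16 of the 23 tested channel genes, 24 windows in all, and for 6 of the 7 called ones. They were searched on both strands for TTCNNNGAA, the general form of the IFN-γ activated site and the same on both strands, and for the core of the interferon-stimulated response element, GAAA repeated after 2 further bases, which may overlap it. Neither stood in any window of the 16 genes, while TTCNNNGAA stood in 7.66% and the repeated GAAA in 3.57% of all windows. Of well-known IFN-γ targets, the IRF1 window held TTCNNNGAA and the GBP1 window held the repeated GAAA. A match or its absence describes these letters in this window alone.

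Of the potassium channel genes, the KCNH family (Kv10 to Kv12, the ether-à-go-go group) had the most tested members, 6 of 8, of which 2 were called lower. KCNH4 encodes Kv12.3, a brain channel of the ELK group. KCNH4 had 1.79, 2.01, 2.06 and 1.67 FPKM with IFN-γ, against 3.99, 3.02, 3.08 and 3.61 FPKM in untreated cells. All 4 IFN-γ libraries were below all untreated libraries. This log2 change of −0.82 (SE 0.11, limma adjusted p = 5.0e-04) was the largest fall among the tested channel genes, and it was called under each of the 18 alternatives.

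KCNH8 encodes Kv12.1, of the same group. KCNH8 had 2.50, 2.68, 2.96 and 2.45 FPKM with IFN-γ, against 3.24, 3.51, 2.97 and 4.44 FPKM in untreated cells. The groups barely separated, since IFN-γ replicate 3 and untreated replicate 3 were nearly equal. The log2 change of −0.39 (SE 0.12, limma adjusted p = 0.0462) passed narrowly and was called under 9 of the 18 alternatives, with adjusted p between 0.0201 and 0.0998. It did not pass without untreated replicate 1, 2 or 4 or without IFN-γ replicate 1, 2 or 4, at limma adjusted p from 0.0655 to 0.0998.

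KCNH2 encodes hERG, the channel of cardiac repolarization that is also prominent in neuroblastoma cells, and had the highest level per length of all channel genes examined. KCNH2 had 29.5, 30.7, 32.6 and 28.6 FPKM with IFN-γ, against 32.6, 29.9, 29.8 and 28.8 FPKM in untreated cells. The groups overlapped, and the log2 change was 0.00 with a 95% interval of −0.12 to 0.12 (limma adjusted p = 0.982). The other tested genes of the family did not pass either. KCNH5 (Kv10.2) averaged 4.26 FPKM with IFN-γ and 4.43 FPKM in untreated cells, KCNH6 (Kv11.2) 0.965 FPKM with IFN-γ and 1.23 FPKM in untreated cells, and KCNH1 (Kv10.1) 0.921 FPKM with IFN-γ and 0.859 FPKM in untreated cells.

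Of the KCNQ genes, some of whose products carry the M-current that holds neurons back from repeated firing, KCNQ5 was called lower. KCNQ5 had 11.8, 11.8, 11.3 and 11.3 FPKM with IFN-γ, against 12.5, 14.0, 14.0 and 13.7 FPKM in untreated cells. The groups did not overlap but the change was small, −0.23 on the log2 scale (SE 0.05, limma adjusted p = 0.00774), and it was called under each of the 18 alternatives. KCNQ3 was under 0.5 FPKM, at 0.142 FPKM with IFN-γ and 0.244 FPKM in untreated cells.

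The KCNC genes encode Kv3 channels, which let neurons fire at high rates. KCNC4 (Kv3.4) had 1.31, 1.15, 1.34 and 1.10 FPKM with IFN-γ, against 2.04, 2.30, 1.83 and 1.87 FPKM in untreated cells. The groups were well apart, with a log2 change of −0.67 (SE 0.12, limma adjusted p = 0.00240) that was called under each of the 18 alternatives. KCNC1 (Kv3.1) averaged 3.16 FPKM with IFN-γ and 3.82 FPKM in untreated cells (limma adjusted p = 0.154). Its lowest IFN-γ library was replicate 4, at 2.43 FPKM, and its log2 change of −0.28 was −0.16 without that library.

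KCNG1 and KCNV2 encode silent subunits, which form no channel alone and alter the Kv2 channels they join. KCNG1 had 2.21, 2.91, 2.86 and 2.81 FPKM with IFN-γ, against 3.99, 3.86, 3.39 and 3.82 FPKM in untreated cells. The groups did not overlap, IFN-γ replicate 1 was the lowest, and the log2 change of −0.47 (SE 0.10, limma adjusted p = 0.00837) was called under each of the 18 alternatives. KCNV2 averaged 1.54 FPKM with IFN-γ and 1.49 FPKM in untreated cells. KCNA3 (Kv1.3, best known from T cells) averaged 0.875 FPKM with IFN-γ and 0.978 FPKM in untreated cells, and KCND1 (Kv4.1, of the fast A-type current) averaged 0.729 FPKM with IFN-γ and 0.895 FPKM in untreated cells, and neither passed.

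Over the tested channel genes, the 4 IFN-γ libraries and the 4 untreated libraries did not overlap for 3 genes higher with IFN-γ, at a background of 15.4% of all tested genes, and for 9 genes lower, at a background of 12.9%. Of the 9 lower genes 8 were potassium channel genes. Summed over the 40 genes, potassium channel RNA was 89.6 ± 3.99 FPKM with IFN-γ and 102 ± 0.606 FPKM in untreated cells (SD, n = 4 each). KCNH2 made up 33.9% of this sum with IFN-γ and 29.6% in untreated cells.

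**Figure D5:**
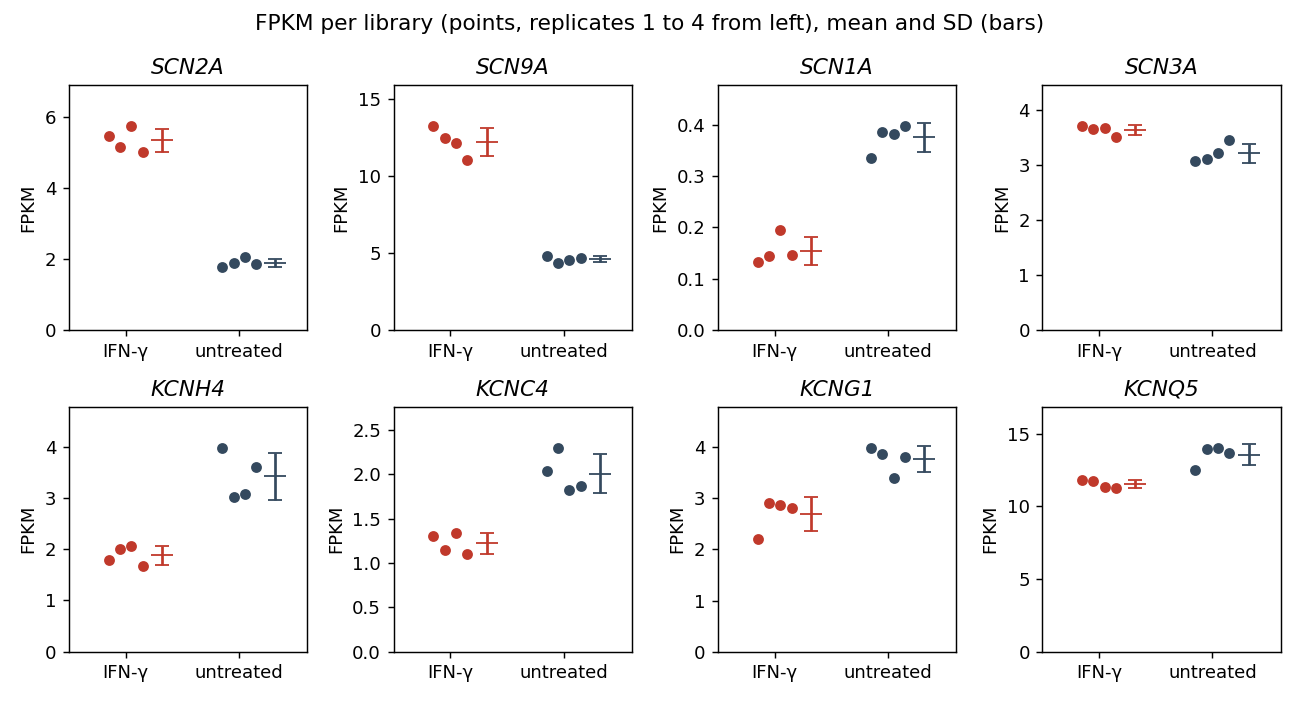
FPKM of 8 channel genes in each library (points), IFN-γ left of untreated, with group means and SD as bars: SCN2A, SCN9A, SCN1A, SCN3A, KCNH4, KCNC4, KCNG1 and KCNQ5. SCN2A, SCN9A and, by a small margin, SCN3A lie higher in all 4 IFN-γ libraries, and SCN1A and the 4 potassium channel genes lie lower, with IFN-γ replicate 1 of KCNG1 at 2.21 FPKM below its group.

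Calcium channel RNA came from 2 genes above 0.5 FPKM, and neither passed. CACNA1B encodes Cav2.2, the N-type channel of transmitter release in sympathetic neurons. CACNA1B had 4.97, 5.54, 5.15 and 3.67 FPKM with IFN-γ, against 5.30, 5.01, 5.15 and 5.57 FPKM in untreated cells. Apart from IFN-γ replicate 4 the libraries were alike, with a log2 change of −0.13 (95% interval −0.39 to 0.12, limma adjusted p = 0.456), or −0.0100 without that library. CACNA1H encodes Cav3.2, a T-type channel that opens near the resting potential. CACNA1H had 2.01, 1.93, 2.01 and 1.17 FPKM with IFN-γ, against 2.68, 2.34, 2.49 and 2.57 FPKM in untreated cells. Its means were 1.78 ± 0.407 FPKM with IFN-γ and 2.52 ± 0.144 FPKM in untreated cells (SD, n = 4 each). The groups had no overlap, and the log2 change of −0.51 missed the threshold (limma adjusted p = 0.0503). IFN-γ replicate 4, at 1.17 FPKM, was well below the rest of its group, and the log2 change without that library was −0.33 and was called (limma adjusted p = 0.0208).

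Auxiliary subunits and related channels were followed through 13 lists with 112 genes in the table, of which 56 were tested, 9 called higher and 7 lower, at a background of 13.3% higher and 9.05% lower over all tested genes, so these counts lie near the background. The sodium channel partners moved in opposite directions. SCN3B, the only tested sodium channel β subunit, which aids surface expression of the pore, had 12.2, 12.3, 12.4 and 10.1 FPKM with IFN-γ, against 19.9, 20.0, 19.1 and 20.2 FPKM in untreated cells, a log2 change of −0.75 (SE 0.07, limma adjusted p = 1.7e-05). Without IFN-γ replicate 4, its lowest library, the SCN3B change was −0.68 and was called. FGF14, the only tested FGF homologous factor, which binds the tail of sodium channels and shapes their inactivation, averaged 13.5 ± 0.455 FPKM with IFN-γ and 6.75 ± 1.02 FPKM in untreated cells (SD, n = 4 each), a log2 change of 1.00 (SE 0.09, limma adjusted p = 3.0e-05). Thus the pore genes SCN2A and SCN9A and the partner FGF14 were higher with IFN-γ, and the β subunit gene SCN3B was lower.

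Of the potassium channel partners, none of the 3 tested Kvβ genes was called, led by KCNAB2 at 3.90 FPKM with IFN-γ and 4.16 FPKM in untreated cells, and the 1 tested KCNE gene, KCNE2, was not called. Of 3 tested Kv4 partners KCNIP4 was higher, at 16.4 ± 1.05 FPKM with IFN-γ and 10.5 ± 0.607 FPKM in untreated cells (SD, n = 4 each; log2 change 0.64, limma adjusted p = 3.3e-05). Among 18 tested genes of channel anchoring and turnover 3 were called higher and 2 lower, near the background shares given above. They included AMIGO1, a membrane partner of Kv2 channels, at 0.910 FPKM with IFN-γ and 1.62 FPKM in untreated cells and a log2 change of −0.76 (limma adjusted p = 0.00880). DLG2, a scaffold that clusters Kv1 channels, was higher, at 1.10 FPKM with IFN-γ and 0.619 FPKM in untreated cells (log2 change 0.74, limma adjusted p = 0.0145). DLG1, on the same list and at a higher level, was lower, at 23.7 FPKM with IFN-γ and 30.8 FPKM in untreated cells (log2 change −0.38, limma adjusted p = 1.9e-05). RIMBP2, which ties calcium channels to release sites, was higher (log2 change 0.55, limma adjusted p = 1.6e-05). The median log2 change of that list was −0.00047.

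All 3 tested genes of the calcium channel α2δ subunits, which raise channel number at the membrane, were called. CACNA2D1, the target of gabapentin, averaged 60.5 ± 1.00 FPKM with IFN-γ and 52.5 ± 1.02 FPKM in untreated cells (SD, n = 4 each), a log2 change of 0.21 (limma adjusted p = 0.00120). That small rise was not called after quantile normalization (adjusted p = 0.0582) or after rescaling to TPM (adjusted p = 0.112). CACNA2D2 averaged 15.9 FPKM with IFN-γ and 20.4 FPKM in untreated cells (log2 change −0.36, limma adjusted p = 2.1e-04), and CACNA2D3 averaged 4.46 FPKM with IFN-γ and 7.87 FPKM in untreated cells (log2 change −0.81, limma adjusted p = 2.9e-04). The sum over the α2δ genes was 79.0 to 82.8 FPKM with IFN-γ and 79.9 to 81.7 FPKM in untreated cells, so the makeup differed more than the total. Of the 4 tested calcium channel β genes CACNB3 was lower, at 3.38 FPKM with IFN-γ and 4.35 FPKM in untreated cells (limma adjusted p = 0.0255), a call made under 13 of the 18 alternatives and lost, among others, without IFN-γ replicate 2 or without untreated replicate 1, 2 or 4, at limma adjusted p up to 0.0694. None of 3 tested γ subunit genes was called, led by CACNG4 at 28.7 FPKM with IFN-γ and 32.1 FPKM in untreated cells (limma adjusted p = 0.0526). CACNG4 was called lower under 3 of the 18 alternatives, quantile normalization (adjusted p = 0.00972), rescaling to TPM (adjusted p = 0.0479) and without IFN-γ replicate 1 (adjusted p = 0.0354).

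Channels of the same superfamily outside the voltage-gated classes included KCNMA1, which had the largest log2 change among the 56 tested genes of these lists. KCNMA1 encodes the BK channel, a potassium channel opened by calcium and voltage together. KCNMA1 had 20.6, 18.6, 20.4 and 17.0 FPKM with IFN-γ, against 6.07, 5.85, 6.45 and 6.05 FPKM in untreated cells, a log2 change of 1.63 (SE 0.07, limma adjusted p = 3.7e-08). KCNT2, a sodium-activated potassium channel gene counted in the same list, averaged 17.0 FPKM with IFN-γ and 11.3 FPKM in untreated cells (limma adjusted p = 2.1e-06), and both were called under each alternative. These were the 2 of 6 tested genes of that list called higher, with none lower. Of 4 tested inward rectifiers KCNJ14 was lower, at 1.73 FPKM with IFN-γ and 2.45 FPKM in untreated cells (limma adjusted p = 0.0383), a call made under 11 of the 18 alternatives and lost, among others, without a filter (adjusted p = 0.0656) and without any 1 of the 4 untreated libraries or IFN-γ replicate 3, at limma adjusted p up to 0.0955. KCNJ11, a subunit of the ATP-sensitive potassium channel on the same list, was under 0.5 FPKM and lay the other way. KCNJ11 had 0.695, 0.590, 0.459 and 0.489 FPKM with IFN-γ, against 0.0875, 0.132, 0.111 and 0.110 FPKM in untreated cells. The groups were far apart, at about 20.9 to 35.4 fragments per library with IFN-γ and 3.93 to 6.99 in untreated cells, and the log2 change without a filter was 1.64 (SE 0.17, limma adjusted p = 1.7e-04). Of 6 tested K2P leak channels KCNK3 was higher, at 20.4 FPKM with IFN-γ and 17.8 FPKM in untreated cells (limma adjusted p = 0.0107), but not after rescaling to TPM (adjusted p = 0.310). None of the 3 tested HCN and CNG genes, which carry pacemaker and cyclic nucleotide-gated currents, was called, with HCN2 at 4.60 FPKM with IFN-γ and 5.41 FPKM in untreated cells (limma adjusted p = 0.175), and HCN2 passed without IFN-γ replicate 2 (adjusted p = 0.0491).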

How the data were processed

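Per the labels' protocols, ribosomal RNA was removed and libraries were read as pairs of 150 nt. Libraries were grouped by the labelled treatment. The deposited values are FPKM per gene and library, and the submitters' processing notes name TopHat2, hg38 and Cuffdiff. Versions, settings, gene models and any scaling between libraries are not given in the sources. With FPKM and no counts, no count model was fitted. A very abundant RNA in the FPKM total can lower all other values.

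Groups were compared by limma 3.58.1 (R 4.3.3) with a mean-variance trend on log2(FPKM + 0.1), two-sided. The fit covered the 13598 genes whose mean was 0.5 FPKM or more, with Benjamini-Hochberg adjustment over all of them and a threshold of 0.05, and was tested on simulated data. Tables and plots were made with Python 3.11.15, pandas 2.3.3 and matplotlib 3.10.9. The members, the 20 gene lists and the alternatives were chosen with earlier results of these data known. A few of these genes are not reported here by name, though they stay in the counts and sums. Named with every library were the called channel genes and the 3 highest tested of each class, and of each auxiliary list up to 3 called genes or else the highest tested one. SCN1A, the genes of its cluster, KCNJ11 and DLG1 were added after their values were seen. The 18 alternatives were another pseudocount (1 or 0.01), the filter at 1 FPKM or left out, scaling by median of ratios, quantiles, TPM without short RNA genes, limma with no trend, robust limma, a replicate block, and leaving out each of the 8 libraries.

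Fragments per library were estimated from steps between low FPKM values of 138 genes, kept because all their values were whole multiples of a step to within 3%. Over all candidate genes, including those not kept, 59.8% of the values were such multiples. Depths and fragment numbers are therefore approximate, cover counting error only, and were put into no count test. Gene lengths and exon overlaps came from GENCODE release 29 on GRCh38, and the cluster and the start regions from RefSeq on GRCh38.p14.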

Additional observations from a re-analysis of the deposited data

Results flagged for a closer look

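5 values among channel and partner genes lay far from the other libraries of their own group, which chance gives for about 1 in 20 groups, and 74 groups of 37 genes were examined. 2 of the 5 were from IFN-γ replicate 4, which held 1.17 FPKM of CACNA1H and 10.1 FPKM of SCN3B, each the lowest of its group. IFN-γ replicate 1 held 2.21 FPKM of KCNG1, the lowest of its group. Untreated replicate 4 held 54.0 FPKM of CACNA2D1, the highest of its group, and untreated replicate 3 held 4.10 FPKM of CACNB3, the lowest of its group.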

How the results depend on the processing

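The rises of SCN2A and SCN9A and the falls of KCNH4, KCNC4, KCNG1 and KCNQ5 kept their call under all 18 alternatives. Channel genes called higher numbered 2 or 3 and those called lower 4 to 8, the 8 after quantile normalization, and 4 to 7 with each library left out, when 2 were called higher throughout. Over all genes, calls higher numbered 1142 after rescaling to TPM, and 1484 to 2157 with each library left out, and calls lower numbered 2574 after quantile normalization, and 852 to 1698 with each library left out. The median log2 change of the channel genes was −0.13 with a pseudocount of 1, and −0.23 to −0.15 with each library left out. Without a filter it was −0.064, but over 54 channel genes rather than the 23 tested. After rescaling to TPM it was −0.32, where the median over all tested genes was −0.096. No channel gene changed direction among its called values.

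Same-numbered libraries deviated together with correlations from −0.03 to 0.08, and 5 of the 8 libraries correlated best with their own number. That is more than the average by chance, but correlations this weak do not decide whether the numbers pair the samples. The main fit did not pair them. With the replicate block, 2 channel genes were called higher and 5 lower, and 1639 of all genes higher and 1017 lower. KCNH8 (limma adjusted p = 0.0888), CACNB3 (0.0542) and KCNJ14 (0.0627) were not called with the block. Depth limits the genes under 0.5 FPKM most, such as SCN11A at 3 to 19 fragments.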
